A study of Mus musculus with 14 samples.

Results

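The microRNAs miR-155, miR-146a and miR-146b were followed in transplanted mouse hearts and in the lymphocytes recovered from such grafts. Named mmu-miR-155, mmu-miR-146a and mmu-miR-146b on the card, they are 3 of the 375 microRNA assays on the TaqMan rodent array card used. They were picked by assay name, with earlier results of these data known. Syngeneic grafts were C57BL/6 hearts placed in C57BL/6 recipients, recorded in the labels as not rejected. Allogeneic grafts were BALB/c hearts placed in C57BL/6 recipients, recorded as rejected, so donor strain and group cannot be told apart. Whole grafts were taken on day 7, with 3 syngeneic and 3 allogeneic arrays. Graft-infiltrating lymphocytes (GIL) were taken on day 5, also with 3 arrays of each kind. The controls were 1 array of hearts of normal BALB/c mice and 1 array of peripheral mononuclear blood cells (PBMC) from C57BL/6 mice without a transplant. Each of the 14 arrays held RNA pooled from 3 animals, so n counts pools, and a p-value measures the spread between pools.

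Both families are known for their part in immune activation. miR-155 is made from the non-coding transcript Mir155hg, is induced in lymphocytes and macrophages by antigen and by microbial products, and represses inhibitors of cytokine signalling such as Socs1. miR-146a is induced through NF-kappaB and represses the adaptor proteins Traf6 and Irak1, which lie upstream of NF-kappaB, so it is known as a negative feedback regulator. miR-146b comes from a separate gene and carries the same seed, the stretch that pairs with target messenger RNAs.

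The mature sequences show which members can share targets, and how alike the 2 miR-146 assays' targets are. They are given 5′ to 3′ from RefSeq (build GRCm38.p6), with the seed, bases 2 to 8, in capitals.
miR-155: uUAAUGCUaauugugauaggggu
miR-146a: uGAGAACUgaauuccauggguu
miR-146b: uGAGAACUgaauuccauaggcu
The assay names carry no arm and were matched to the 5p arm. miR-155 (chr16:84714143-84714165, plus strand, 23 bases) lies within the long non-coding RNA gene Mir155hg. miR-146a (chr11:43374435-43374456, minus strand, 22 bases) lies within no other annotated gene. miR-146b (chr19:46342790-46342811, plus strand) lies within the long non-coding RNA gene Gm36493. miR-146a and miR-146b are identical at 20 of 22 bases and differ by G18A and U21C, counted from 1 at the 5′ end of miR-146a. Their seed was found in no other mature mouse microRNA of the RefSeq table, and that of miR-155 in none besides itself. Whether either miR-146 assay also detects the other microRNA was not tested.

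The heart arrays detected 228 to 260 microRNA assays at a threshold cycle (Ct) under 35, and the GIL and PBMC arrays 161 to 221. Allogeneic GIL pool 3 stood apart, with the fewest assays detected and a mean reference Ct of 28.0 against 23.2 to 25.8 on the other arrays of its table. The 3 members were detected on 14 of 14 arrays. Levels are given on a log2 scale as minus the Ct, relative to the mean Ct of the assays detected on all 7 arrays of the same table. A difference of 1 is therefore about 2-fold, and levels of different microRNAs are not compared, since each assay has its own efficiency.

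**Figure D1:**
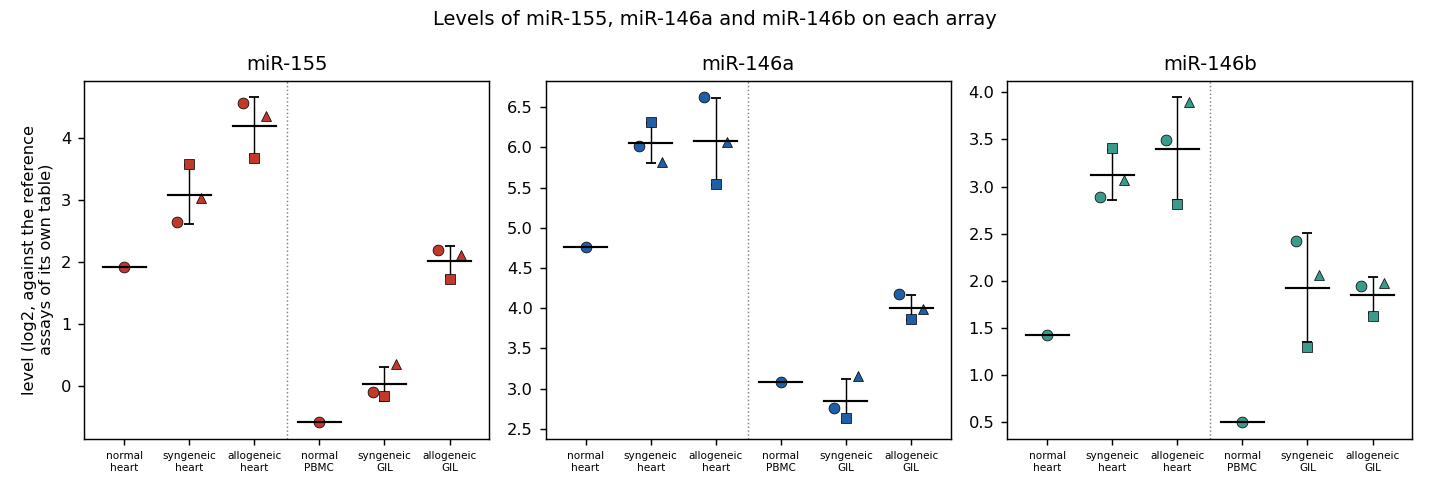
Levels (log2, y axis) of miR-155, miR-146a and miR-146b on each of the 14 arrays, by group (x axis). Circles, squares and triangles are pools 1, 2 and 3, horizontal lines are group means and bars are SD (n = 3). The dotted line parts the hearts from the GIL and PBMC table, whose references differ. Every allogeneic array lies above every syngeneic array for miR-155 in both tables and for miR-146a in GIL. In hearts the miR-155 groups overlap when scaled to the assays detected on all 14 arrays.

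In infiltrating lymphocytes, miR-155 and miR-146a were higher in allogeneic than in syngeneic grafts, and the fitted difference of miR-146b was close to 0. The miR-155 level was 2.19, 1.73 and 2.12 in allogeneic pools 1, 2 and 3, and -0.09, -0.16 and 0.35 in the syngeneic pools. The lowest allogeneic pool lay well above the highest syngeneic pool. The difference was 1.98 ± 0.26 (log2, SE), or 3.94-fold, with a limma adjusted p of 0.00713, and ranked 15 of 201 assays tested from the highest.

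The feedback regulator miR-146a stood at 4.17, 3.86 and 3.99 in allogeneic GIL and at 2.76, 2.64 and 3.16 in syngeneic GIL. Again the groups did not overlap. It rose by 1.16 ± 0.24, or 2.23-fold, with a limma adjusted p of 0.0158. This call was lost when syngeneic pool 1 (adjusted p = 0.0589) or pool 2 (0.0737) was left out, and when undetected assays were not filtered (0.105).

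The paralogue miR-146b stood at 1.94, 1.62 and 1.97 in allogeneic GIL and at 2.43, 1.29 and 2.07 in syngeneic GIL. The syngeneic pools enclosed the allogeneic ones. The fitted difference was -0.08 ± 0.35 (95% confidence interval -0.94 to 0.78, limma adjusted p = 0.864), and its sign turned with the scaling, reaching 0.81 with snoRNA202. In the authors' deposited table, the relative quantities of miR-146b, scaled to snoRNA202 with PBMC at 1, ran from 5.56 to 8.74 in the allogeneic pools and from 2.20 to 4.97 in the syngeneic pools. On the snoRNA202 scale the median allogeneic minus syngeneic difference over all GIL assays tested was 0.65.

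Thus 2 of the 3 members were called in GIL, both higher, where 36.3% of all assays were called and 12.4% were called higher. Every allogeneic array exceeded every syngeneic array for 24.4% of assays. Without allogeneic GIL pool 3 the differences were 2.02 for miR-155, 1.26 for miR-146a and -0.05 for miR-146b. The 3 syngeneic GIL arrays were run on 1 day that held no other array, so run day and group cannot be told apart in GIL.

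Cell type markers moved as well, and their part in these differences was not tested. In bulk RNA, fewer cells of a type and less RNA per cell cannot be told apart. Of the 2 arms of miR-142, which blood cells express, miR-142-3p rose in allogeneic GIL by 1.60 ± 0.34 (limma adjusted p = 0.0168), and miR-142-5p differed by 1.00 (adjusted p = 0.0916). The summed level of both arms ranged over 4.98 to 5.57 in the allogeneic GIL pools, 3.18 to 4.15 in the syngeneic ones and stood at 7.05 in PBMC. GIL also held microRNAs of heart tissue. Cardiac muscle microRNAs had summed levels of 5.18 to 6.45 in the allogeneic pools, 3.78 to 4.47 in the syngeneic pools and -3.67 in PBMC, with 2 of 3 tested higher. Of the same list, miR-208 was detected in 2 of 3 pools of each GIL group, and miR-499 in 2 of 3 allogeneic and 1 of 3 syngeneic pools. miR-208b was detected in no GIL pool, and PBMC showed none of these 3. For fibroblast microRNAs the sums were 1.91 to 3.13 in the allogeneic and 4.43 to 4.71 in the syngeneic pools, with 3 of 3 lower, and 1 of 2 endothelial microRNAs was lower. Of the 3 lymphocyte microRNAs (miR-150, miR-342-3p and miR-181a) and the myeloid miR-223, 0 were called by limma. Of these, 1 had an unadjusted p under 0.05, against 50.7% of all GIL assays.

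In whole hearts on day 7, none of the 3 members passed the test between allogeneic and syngeneic grafts. The levels of miR-155 did not overlap on the heart table's own reference. The miR-155 level was 4.56, 3.67 and 4.34 in allogeneic hearts and 2.65, 3.58 and 3.03 in syngeneic hearts. Every allogeneic heart pool lay above every syngeneic one, the gap between allogeneic pool 2 and syngeneic pool 2 being small. Relative to the assays detected on all 14 arrays, these 2 pools stood at 1.97 and 2.06, so the groups overlapped. The difference was 1.10 ± 0.35 (2.15-fold, 95% confidence interval 0.27 to 1.94), with a limma adjusted p of 0.0524 (unadjusted p = 0.0174). Its rank was 42 of 238 assays from the highest. The call was made under 3 of 18 alternatives. These left out allogeneic heart pool 2 (1.37, limma adjusted p = 0.0267), scaled to snoRNA202 (1.26, 0.0457) or used Ct limit 32 (1.09, 0.0410). It was not made under the others, for example with MammU6 as the scale (0.99, limma adjusted p = 0.225).

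miR-146a stood at 6.62, 5.54 and 6.07 in allogeneic hearts and at 6.02, 6.31 and 5.82 in syngeneic hearts. The highest and the lowest of these 6 pools were both allogeneic. The fitted difference was 0.03 ± 0.33 (95% confidence interval -0.76 to 0.81, limma adjusted p = 0.958), and its sign turned under several scalings. miR-146b stood at 3.49, 2.81 and 3.90 in allogeneic and at 2.89, 3.41 and 3.07 in syngeneic hearts. These groups overlapped too, with a difference of 0.28 ± 0.33 (95% confidence interval -0.52 to 1.07, limma adjusted p = 0.534).

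Thus 0 of 3 members were called by limma, and 1 (miR-155) had an unadjusted p under 0.05, as had 47.5% of all heart assays. Among all heart assays 32.4% were called, and every allogeneic array exceeded every syngeneic array for 26.5%. In hearts, 2 run days held an array of each group. On these days miR-155 was higher in the allogeneic heart by 1.91 and 0.76, and miR-146b by 0.60 and 0.48. For miR-146a the 2 days gave 0.60 and -0.25. The summed miR-142 level ranged over 6.75 to 7.00 in the allogeneic pools and 4.83 to 5.43 in the syngeneic pools, and was 2.63 in the normal heart. Cardiac muscle microRNAs had summed levels of 9.13 to 9.47 in the allogeneic pools and 10.5 to 11.3 in the syngeneic pools, with 5 of 6 lower. Fibroblast microRNAs were lower in 2 of 2 tested and endothelial ones in 2 of 2. Of the 3 lymphocyte microRNAs, miR-342-3p rose by 1.30 (limma adjusted p = 0.0431), while miR-150 (-0.49) and miR-181a (-0.35) were not called. Their summed level ranged over 6.28 to 6.50 in the allogeneic and 6.23 to 6.55 in the syngeneic pools. Of the erythroid pair, miR-451 rose by 3.99 (15.9-fold, adjusted p = 0.00797) and miR-486 differed by -0.16 (0.608). The part of these markers in the heart differences was not tested.

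**Figure D2:**
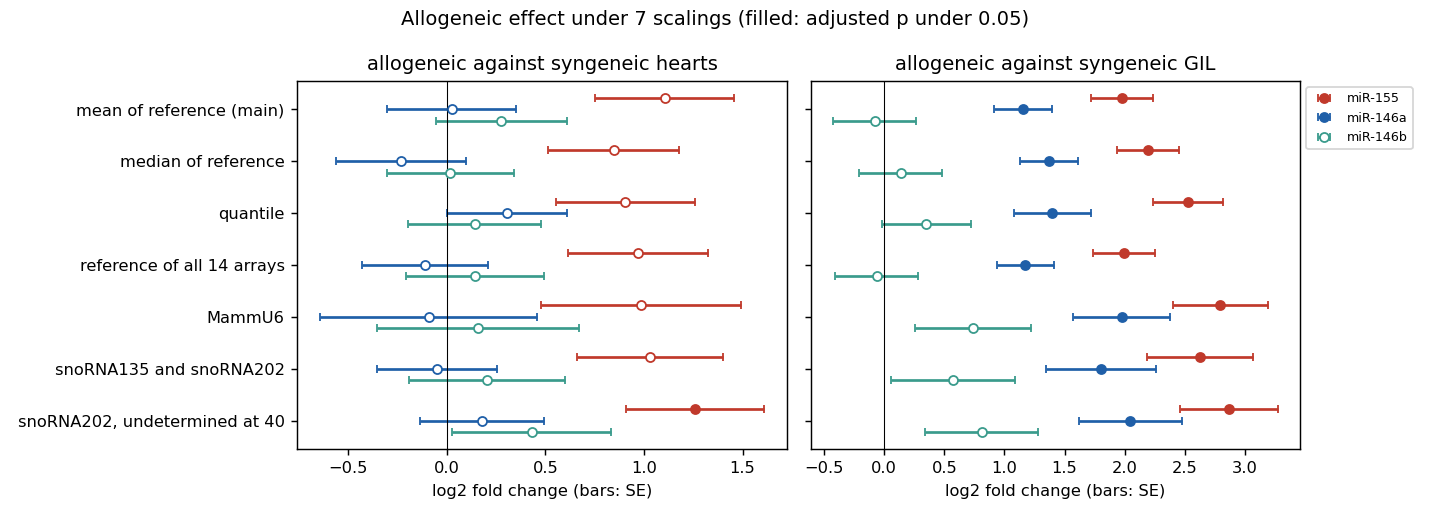
Allogeneic minus syngeneic differences (log2, x axis, bars are SE) of miR-155, miR-146a and miR-146b in hearts (left) and GIL (right) under 7 scalings (y axis). Filled points had a limma adjusted p under 0.05. In GIL miR-155 and miR-146a stay above 0 under each scaling, while miR-146b changes sign, as does miR-146a in hearts.

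Each scaling also moved the median over all assays. With MammU6 the median difference of all GIL assays shifted by 0.82, with snoRNA135 and snoRNA202 by 0.65, with snoRNA202 alone by 0.89, with the reference median by 0.22 and with quantile normalization by 0.30. In hearts the shifts lay between -0.26 and 0.15. Under MammU6 the GIL differences were 2.80 for miR-155, 1.97 for miR-146a and 0.74 for miR-146b, each including that shift.

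Grafts were also compared with normal tissue, with 1 normal array per table, whose own spread was not measured and was assumed to be like that of the others. Both comparisons of a table share that array, and the normal heart has the strain of the allogeneic grafts only. In the normal heart the levels were 1.92 for miR-155, 4.76 for miR-146a and 1.42 for miR-146b, below each of the 6 grafts for each member. The share of all assays with that order was not counted. Allogeneic hearts exceeded it by 2.27 ± 0.50 for miR-155 (4.82-fold, limma adjusted p = 0.0115) and by 1.98 ± 0.47 for miR-146b (3.94-fold, adjusted p = 0.0144). For miR-146a the difference was 1.32 ± 0.46 (adjusted p = 0.0503). In that comparison 51.9% of all assays were called, and 26.1% were called higher. Markers moved there too, and their part was not tested. miR-142-3p rose by 4.23 (18.7-fold, limma adjusted p = 0.000212) and the myeloid miR-223 by 2.46 (adjusted p = 0.0199), while cardiac muscle microRNAs were lower in 6 of 6 (median -2.93) and endothelial ones in 2 of 2. Syngeneic hearts differed from the normal heart by 1.16 ± 0.50 for miR-155 (limma adjusted p = 0.134), by 1.29 ± 0.46 for miR-146a (0.0923) and by 1.70 ± 0.47 for miR-146b (0.05004, just above the threshold). Thus 0 of 3 members were called by limma there, against 19% of assays. At an unadjusted p under 0.05 there were 2 of 3, against 40.1% of assays.

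Of the 3 members, miR-155 passed the test between allogeneic GIL and the single PBMC array. The PBMC levels were -0.58 for miR-155, 3.09 for miR-146a and 0.49 for miR-146b. Those of miR-155 and miR-146b lay below each of the 6 GIL arrays, and that of miR-146a lay among the syngeneic ones. How many of all assays lay below each GIL array was not counted. Allogeneic GIL exceeded PBMC by 2.59 ± 0.37 for miR-155 (6.04-fold, limma adjusted p = 0.00267). The differences were 0.92 ± 0.34 for miR-146a (adjusted p = 0.0616) and 1.35 ± 0.50 for miR-146b (0.0609). In this comparison 58% of assays were called. Both miR-142 arms were lower in allogeneic GIL than in PBMC, and 3 of 3 cardiac muscle, 3 of 3 fibroblast and 2 of 2 endothelial microRNAs tested were higher. Of the 3 lymphocyte microRNAs, miR-150 (-2.46) and miR-181a (-2.09) were called lower and miR-342-3p (-0.51) was not. The myeloid miR-223 (-3.32) and the erythroid miR-451 (-1.69) were called lower too. Syngeneic GIL gave the same calls for these markers, except that miR-223 was not called. The part of these markers was not tested. Syngeneic GIL differed from PBMC by 0.62 ± 0.38 for miR-155 (limma adjusted p = 0.210), by -0.24 ± 0.35 for miR-146a (0.595) and by 1.43 ± 0.51 for miR-146b (0.0510). There 0 of 3 members were called by limma, against 60.7% of assays. At an unadjusted p under 0.05 there was 1 of 3, against 67.7% of assays. The sign for miR-146a turned under several scalings, and that for miR-155 under MammU6.

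The allogeneic effect was then set between the tables, which differ in tissue and in day together. In GIL it exceeded that in hearts by 0.87 ± 0.44 for miR-155 (limma interaction, adjusted p = 0.161) and by 1.13 ± 0.40 for miR-146a (adjusted p = 0.0608). For miR-146b the difference was -0.36 ± 0.49 (adjusted p = 0.604), with a sign that turned under several scalings. Thus 0 of 3 passed by limma, against 28.8% of assays. At an unadjusted p under 0.05 there was 1 of 3 (miR-146a), against 39.9% of assays. An effect called in GIL only is not shown to differ from hearts. miR-146a passed under 6 of 21 alternatives and miR-155 under 2.

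Other microRNAs linked to inflammation were taken as a list. Of its 7, 7 were tested in hearts, where 2 rose and 1 (miR-187, undetected in allogeneic hearts) was called lower. The median was 0.77 against 0.02 over all assays. Among all heart assays 32.4% were called, 17.2% higher and 15.1% lower. miR-21, which activated T cells and injured hearts express, was 8.29, 8.10 and 7.999 in allogeneic hearts and 6.72, 6.40 and 6.63 in syngeneic hearts. The groups lay far apart, with a rise of 1.55 ± 0.21 (limma adjusted p = 0.00437). miR-147, which macrophages induce on Toll-like receptor stimulation, rose by 3.69 ± 0.44 (adjusted p = 0.00322). miR-187 was detected in 3 of 3 syngeneic hearts and in 0 of 3 allogeneic hearts. Its limma call as lower set every allogeneic well to the detection limit. The spread of that group was therefore not measured, and only the difference in detection is read from miR-187. miR-132 (0.77, adjusted p = 0.0524), miR-223 (0.96, 0.149), miR-9 (-0.71, 0.136) and miR-125b-5p (-0.20, 0.550) did not pass in limma.

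In GIL 6 of the list were tested, with 0 higher by limma (1 at an unadjusted p under 0.05) and 2 lower, and a median of -0.57 against -0.24 over all assays. Among all GIL assays 36.3% were called, 12.4% higher and 23.9% lower. At an unadjusted p under 0.05, 39 of the 201 assays tested were higher. miR-125b-5p fell by 1.32 ± 0.30 (limma adjusted p = 0.0215) and miR-132 fell by 1.25 ± 0.33 (adjusted p = 0.0334). miR-21 differed by 0.62 (adjusted p = 0.0822) and miR-147 by 0.50 (0.419) in limma.

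**Figure D3:**
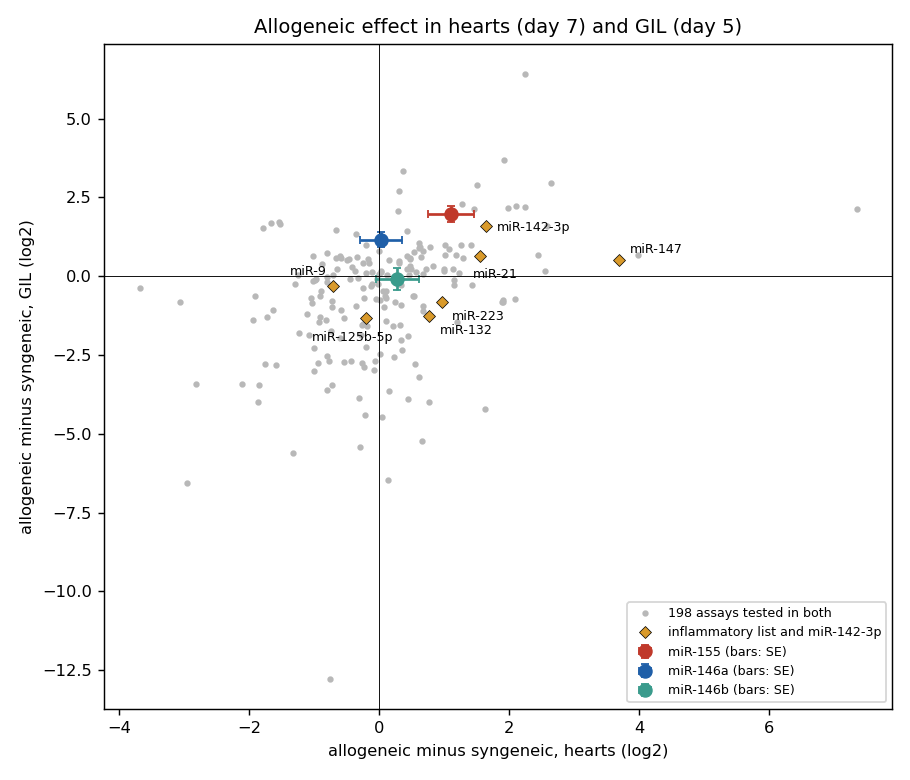
Allogeneic minus syngeneic differences (log2) in hearts on day 7 (x axis) and GIL on day 5 (y axis) for the 198 assays tested in both (grey). Diamonds are the inflammatory list and miR-142-3p, and large circles are the 3 members with SE bars. miR-155 lies above 0 on both axes but was called by limma in GIL only. miR-146a lies at 1.16 on the GIL axis and at 0.03 on the heart axis, and miR-146b lies near the origin. None of the 3 members passed the limma interaction test between the tables. The signs of miR-146a in hearts and of miR-146b in GIL turned with the scaling.

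Ratios of 2 assays on 1 array need no scaling, and show unequal change only. The log2 ratio of miR-155 to miR-146a was -2.07, -1.87 and -1.72 in allogeneic hearts and -3.38, -2.73 and -2.79 in syngeneic hearts. In GIL it was -1.98, -2.13 and -1.87 in allogeneic and -2.85, -2.80 and -2.80 in syngeneic pools. All 6 allogeneic arrays thus lay above all 6 syngeneic arrays, with the normal heart at -2.84 and PBMC at -3.67. The difference was 1.08 ± 0.23 in hearts (SE, 2.11-fold) and 0.82 ± 0.08 in GIL (1.77-fold), each with an exact two-sided permutation p of 0.1 (0.15 adjusted over 12 ratio tests). With 3 against 3 pools, 0.1 is the smallest p possible.

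For comparison, the ratio of miR-155 to each of 132 other assays separated allogeneic above syngeneic arrays in hearts for 45.5%, in GIL for 87.1% and in both for 40.9%. The separation from miR-146a is therefore one of many.

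The ratio of miR-155 to miR-146b was 1.06, 0.86 and 0.45 in allogeneic and -0.25, 0.17 and -0.04 in syngeneic hearts. In GIL it was 0.25, 0.11 and 0.14 in allogeneic and -2.51, -1.45 and -1.71 in syngeneic pools. It separated the groups in both tables, by 0.83 ± 0.22 in hearts and 2.06 ± 0.32 in GIL (4.16-fold), with an exact permutation p of 0.1 for each.

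The 2 paralogues were also set against each other. The ratio of miR-146a to miR-146b was 2.23, 2.24 and 2.02 in allogeneic GIL and 0.33, 1.35 and 1.09 in syngeneic GIL, with PBMC at 2.59. The 3 syngeneic GIL pools were the lowest of the 14 arrays. The difference was 1.24 ± 0.31 (2.36-fold, exact permutation p = 0.1, 0.15 adjusted over the 12 ratio tests), without overlap. In hearts the ratio was 3.13, 2.73 and 2.17 in allogeneic and 3.13, 2.90 and 2.75 in syngeneic pools. Those groups overlapped, with a difference of -0.25 ± 0.30 (exact permutation p = 0.4). Among its 132 partner assays, miR-146a separated allogeneic above syngeneic arrays for 65.2% in GIL and 12.1% in hearts, and miR-146b for 15.2% and 19.7%.

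**Figure D4:**
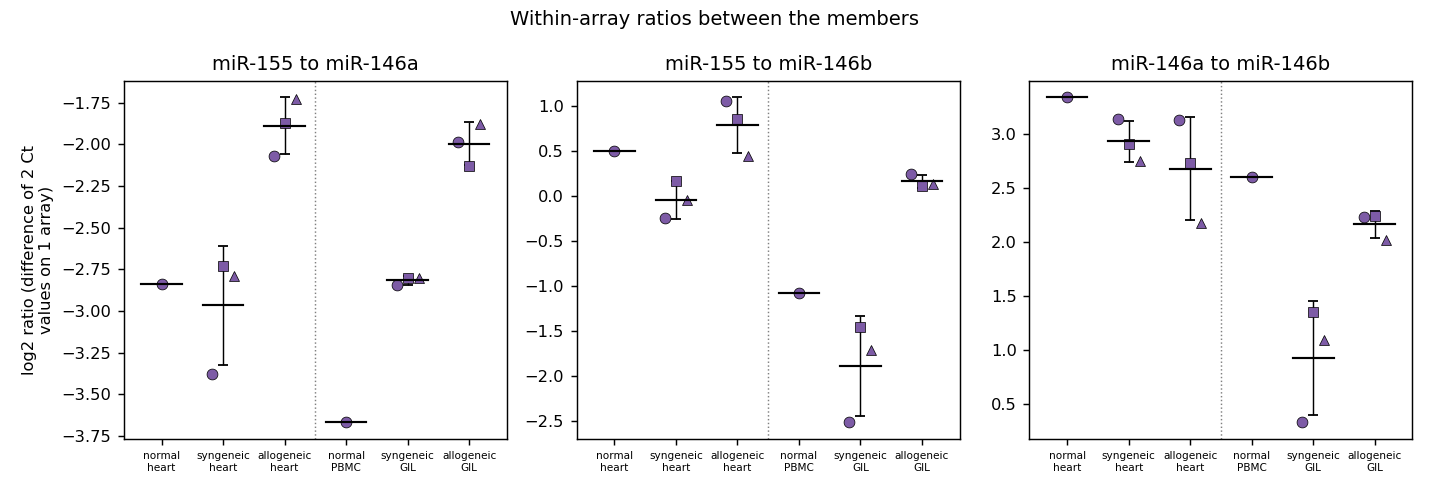
Log2 ratios (y axis, difference of 2 Ct values on 1 array) between the members by group (x axis). Symbols are pools, lines are means and bars are SD (n = 3). The ratio of miR-155 to miR-146a lies between -2.13 and -1.72 on the 6 allogeneic arrays and between -3.38 and -2.73 on the 6 syngeneic arrays.

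Set against the 2 arms of the blood-cell microRNA miR-142, miR-155 separated the groups in 1 case of 4, against miR-142-5p in GIL. Its log2 ratio to miR-142-3p was -2.43, -3.07 and -2.47 in allogeneic and -2.76, -1.83 and -1.78 in syngeneic hearts. The groups overlapped, with a difference of -0.53 ± 0.38 (exact permutation p = 0.3), whose sign turned to 0.09 with miR-142-5p. In GIL the ratio was -2.79, -3.32 and -3.44 in allogeneic and -4.23, -3.32 and -3.14 in syngeneic pools, again overlapping, with a difference of 0.38 ± 0.39 (exact permutation p = 0.5). Its ratio to miR-142-5p in GIL was 4.61, 3.42 and 3.13 in allogeneic and 2.67, 2.68 and 2.87 in syngeneic pools. There every allogeneic pool lay above every syngeneic pool, by 0.98 ± 0.46 on average (1.97-fold, exact permutation p = 0.1), as did 3.79% of the 132 assays set against miR-142-5p.

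The ratios of both miR-146 microRNAs to miR-142-3p lay lower on every allogeneic heart array than on every syngeneic one, as did those of most assays. The ratio of miR-146a was -0.37, -1.20 and -0.74 in allogeneic and 0.62, 0.90 and 1.01 in syngeneic hearts, a 3.06-fold lower mean. That of miR-146b was -3.49, -3.93 and -2.92 against -2.51, -1.999 and -1.74, or 2.57-fold lower. The exact permutation p was 0.1 for each (0.15 adjusted over the 12 ratio tests). Of the 132 other assays, 81.1% lay lower in this way against miR-142-3p, and 53.8% against miR-142-5p. With miR-142-5p the mean was 1.99-fold lower for miR-146a, still without overlap, and 1.67-fold lower for miR-146b, where the groups overlapped (exact permutation p = 0.2). In GIL the ratio of miR-146b was -3.03, -3.42 and -3.58 in allogeneic and -1.71, -1.87 and -1.43 in syngeneic pools, 3.20-fold lower and without overlap (exact permutation p = 0.1, 0.15 adjusted), as for 75.8% of assays. With miR-142-5p the miR-146b groups overlapped, at 2.11-fold lower (exact permutation p = 0.2), while 44.7% of assays lay lower on every allogeneic array. For miR-146a in GIL the groups overlapped, at -0.44 ± 0.39 (exact permutation p = 0.3), and the sign turned with miR-142-5p.

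The normal arrays lay at the extremes of these ratios. PBMC had the lowest ratio of each member to miR-142-3p, at -7.62 for miR-155, -3.95 for miR-146a and -6.55 for miR-146b. The normal heart had the highest, at -0.70, 2.14 and -1.20.

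**Figure D5:**
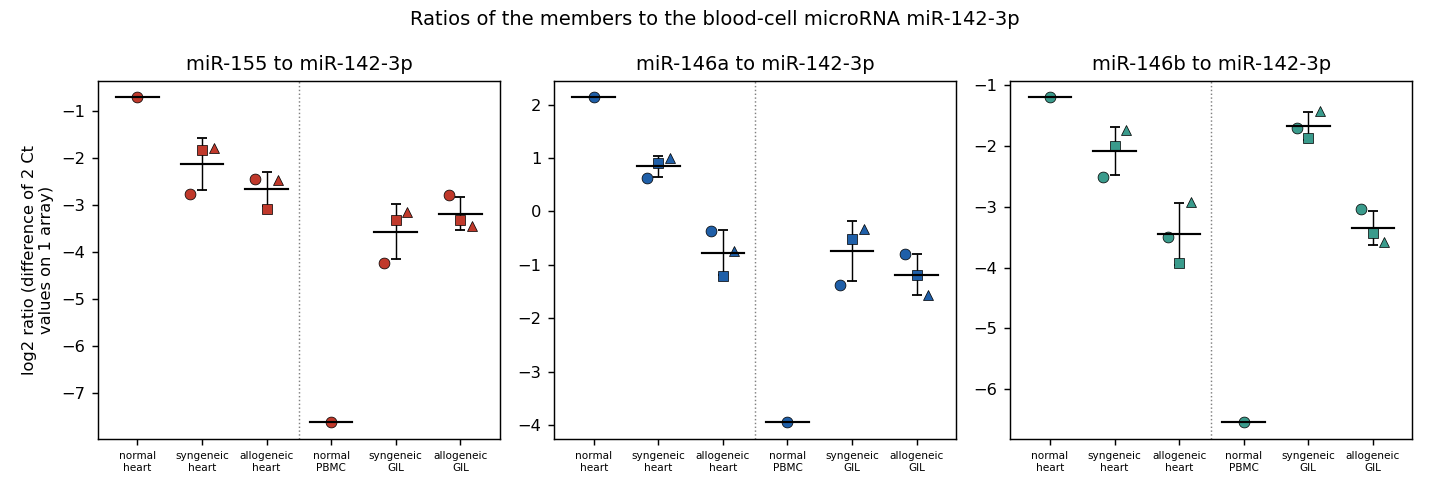
Log2 ratios (y axis) of miR-155, miR-146a and miR-146b to miR-142-3p by group (x axis). Symbols are pools, lines are means and bars are SD (n = 3). PBMC is lowest and the normal heart highest in each panel, and the miR-155 ratios of allogeneic and syngeneic arrays overlap in both tables.

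Likeness of profile was measured as the root-mean-square difference of levels over the 14 arrays, among 132 other assays detected on all of them. Each level was scaled within its table and centred on the assay's mean over that table. Differences in level between the 2 tables therefore do not enter. The assay most like miR-155 was miR-7a (0.53), followed by miR-146a (0.57) and miR-7b (0.62), against a median of 1.32. miR-7a was higher in allogeneic hearts by 1.98 ± 0.25 (limma adjusted p = 0.00343) and in GIL by 2.16 ± 0.31 (adjusted p = 0.00713). miR-7b was higher by 2.11 ± 0.53 (limma adjusted p = 0.0253) and 2.23 ± 0.20 (0.00260). Both were picked for likeness to miR-155 over these same arrays, so these fits are no separate support. The assay most like miR-146a was miR-155, then miR-28 (0.58) and miR-146b (0.58), against a median of 0.93. Those most like miR-146b were miR-197 (0.54), miR-362-3p (0.55) and miR-680 (0.56), against a median of 1.07. Between allogeneic and syngeneic grafts, miR-28, miR-197 and miR-680 were called by limma in neither table. miR-362-3p was called higher in hearts (1.13, limma adjusted p = 0.0249) and not in GIL. Without allogeneic GIL pool 3, miR-188-5p ranked first for miR-146a and miR-680 for miR-146b.

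Across all groups, levels were also set on the 133 assays detected on all 14 arrays. The tables were run and exported separately, so these values are a description. miR-155 was highest in allogeneic hearts at 2.51 ± 0.47 (SD, n = 3), then in allogeneic GIL at 1.99 ± 0.25, in syngeneic hearts at 1.54 ± 0.48 and in the normal heart at 0.39. Syngeneic GIL spanned -0.19 to 0.31, and PBMC stood at -0.62. Neighbours among the first 3 did not differ beyond their spread.

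miR-146a ran from 4.51 ± 0.26 in syngeneic hearts, 4.40 ± 0.52 in allogeneic hearts and 3.99 ± 0.16 in allogeneic GIL to 3.22 in the normal heart, 3.05 in PBMC and 2.81 ± 0.26 in syngeneic GIL. Neighbours among the first 3 overlapped, and so did PBMC with syngeneic GIL. miR-146b overlapped among the 4 transplant groups, at 1.89 ± 0.57 in syngeneic GIL, 1.83 ± 0.20 in allogeneic GIL, 1.72 ± 0.60 in allogeneic hearts and 1.58 ± 0.28 in syngeneic hearts. It was lower in PBMC at 0.46 and in the normal heart at -0.11, each a single array.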

How the data were processed

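The authors exported Ct values from SDS 2.4, per the file headers, and deposited a delta Ct (a log2 scale) and a relative quantity (a ratio). The deposited delta Ct equals the Ct minus that of snoRNA202 with undetermined wells at 40, within 5e-04. Per the labels' protocols, RNA was isolated with mirVana, reverse transcribed and preamplified with Megaplex primers and run on a 7900HT. Baseline and threshold settings are not given in the sources used here. A let-7b well of allogeneic heart pool 2 had a differing sample name and was left out.

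A Ct of 35 was the detection limit, and later or undetermined wells took that value. The reference held 210 heart or 137 GIL and PBMC assays. Assays detected on every array of at least 1 compared group were tested with limma 3.58.1 in R 4.3.3 (3 groups per table, two-sided, Benjamini-Hochberg over all assays tested, threshold 0.05), and the fits were tested on simulated data. Ratios used exact permutation tests (scipy 1.17.1). Arrays give no counts, so their number limits the precision.

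The members and lists were chosen with earlier results of these data known. Assays named are the members, the inflammatory and cell type lists, assays sharing a seed, and those with the most similar profile. Same-numbered heart pools did not deviate together (correlations -0.126 to -0.0522), nor did GIL pools (-0.024 to 0.061). The main fits therefore used no pairing, though this check cannot exclude that same-numbered pools were handled together. Other scalings, limits, filters, blocks and left-out pools were tried.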

Additional observations from a re-analysis of the deposited data

Results flagged for a closer look

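For 3 of the 6 microRNAs of the inflammatory list tested in both tables, the allogeneic effect differed between GIL and hearts in the limma interaction test. None of the 3 members passed it. Among all assays 28.8% passed, 20.7% with a lower effect in GIL. The effect in GIL minus that in hearts was -2.02 for miR-132 (adjusted p = 0.00710), -3.19 for miR-147 (adjusted p = 0.00914) and -0.92 for miR-21 (adjusted p = 0.0330). Tissue and day differ together between the tables.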

How the results depend on the processing

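Each value is an allogeneic minus syngeneic log2 difference unless said otherwise. miR-155 in GIL was called under 17 of 17 alternatives (1.84 to 2.87) and miR-146a in GIL under 14 of 17, losing its call without the detection filter (1.16) and without syngeneic pool 1 (1.11) or pool 2 (1.01), in a range of 1.01 to 1.39 without single pools. miR-155 in hearts was called under 3 of 18, at 1.26 with snoRNA202, 1.09 with a Ct limit of 32 and within 0.89 to 1.37 without single pools. miR-146a in hearts reversed with MammU6 (-0.093), both snoRNAs (-0.048), the median (-0.23), the 14-array reference (-0.11) and without single pools (-0.25 to 0.30). miR-146b in GIL reversed with MammU6 (0.74), both snoRNAs (0.57), snoRNA202 (0.81), the median (0.14), quantile (0.35) and without single pools (-0.44 to 0.17). The cause was not tested.

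Of heart assays 77 were called (41 higher, 36 lower), against 34 with MammU6, 42 without the filter, 2 with run day as a fixed block and 42 to 81 without single pools. The heart split was 24 higher and 56 lower with the median, 39 and 21 with snoRNA202, and 36 and 51 with the 14-array reference. Of GIL assays 73 were called (25 higher, 48 lower), against 31 with both snoRNAs (21 and 10), 35 with snoRNA202 (27 and 8), 35 without the filter and 40 to 73 without single pools. The GIL split was 34 and 20 with MammU6, 36 and 39 with the median, and 34 and 31 with quantile. With the replicate number as a block, 46 heart and 55 GIL assays were called, and miR-155 (1.98, limma adjusted p = 0.0305) kept its call in GIL. Run day as a fixed block could not be fitted in GIL.

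Against normal tissue, miR-146b in syngeneic hearts was called with the median (1.76) and Ct 32 (1.72), and spanned 1.56 to 1.82 without single pools. miR-146a in allogeneic hearts was called with snoRNA202 (1.91), quantile (1.41) and Ct 32 (1.33), and spanned 1.05 to 1.61. In syngeneic GIL miR-155 reversed with MammU6 (-0.48), and miR-146a with both snoRNAs (0.10), snoRNA202 (0.24), the median (0.0017), quantile (0.37) and Ct 32 (0.11). There miR-146b was called with the median (1.67), quantile (1.74) and Ct 32 (1.78), and spanned 1.18 to 1.78. In allogeneic GIL, snoRNA202, the median, quantile and Ct 32 gave calls for miR-146a (2.28, 1.37, 1.77 and 1.13) and miR-146b (2.71, 1.81, 2.09 and 1.56).

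In the interaction, miR-155 was called with the median (1.35) and quantile (1.62). miR-146a was called with both snoRNAs (1.85), snoRNA202 (1.87), the median (1.61) and the 14-array reference (1.28), and spanned 0.85 to 1.40. miR-146b reversed with MammU6 (0.58), both snoRNAs (0.37), snoRNA202 (0.38), the median (0.12) and quantile (0.21). With miR-142-5p in place of miR-142-3p, the ratio differences reversed for miR-155 in hearts (0.085) and miR-146a in GIL (0.16). That of miR-146a to miR-146b in hearts ran from -0.48 to 0.00078 without single pools.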
